A study of Mus musculus with 17 samples.

Results

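The genes described here are 7 Toll-like receptor genes of the mouse (Tlr1, Tlr2, Tlr4, Tlr7, Tlr8, Tlr9 and Tlr13), the genes of the endotoxin co-receptors Cd14 and Ly96, and the adaptor gene Myd88, listed by name. These genes were chosen with earlier results of these data known. They are 10 of the 22180 genes with a signal in this study of periprostatic fat, the adipose tissue around the prostate, and each of them is read by 1 probe set. RNA came from 17 male C57BL/6J mice, each on an array of its own (Affymetrix Mouse Gene 2.0 ST), and all diets began at 6 weeks of age and ended with harvest at 25 weeks. In the restricted group (HFD_CR, n = 5) mice ate a diet with 60 kcal% fat freely for 12 weeks and then, for 7 weeks, daily rations of 70% of what freely fed high-fat mice ate. The freely fed high-fat group (HFD, n = 6) had the 60 kcal% diet throughout. The low-fat group (LFD, n = 6) had a diet of 10 kcal% fat with free access throughout. No source used here gives the feeding state or the hour of harvest.

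Toll-like receptors are membrane proteins that recognise microbial molecules and, in some settings, molecules released by damaged cells. Some sit on the cell surface and bind lipids and lipoproteins of bacteria, while others sit in endosomes and bind nucleic acids once these have been taken up and partly digested. Macrophages, which gather in adipose tissue of obese mice, carry most of them, and endotoxin sensing through Tlr4 has long been studied in obesity.

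All values are log2 array signals as the authors deposited them, so a difference of 1 corresponds to a doubling of the signal, and their precision is limited by how many arrays there were. A gene is said to rise or fall where its adjusted p, from limma with Benjamini-Hochberg adjustment over all 22180 genes, was under 0.05, and differences are given ± SE. Array medians ran from 7.03 to 7.15, and every signal of these genes was above the median of its array except Tlr13 in LFD mouse 6 (7.01, against an array median of 7.08). The mean over 8 skeletal muscle genes lay over 1 log2 unit above the median array in HFD_CR mouse 2, HFD mouse 6, LFD mouse 2 and LFD mouse 3, and in LFD mouse 3 the mean over 8 gland epithelium genes did too. The male germ cell list averaged 10.4 in HFD_CR mouse 1, against 7.38 to 8.58 in the others. Results that changed without such arrays are given below with both values.

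HFD against LFD asked how the high-fat diet, eaten freely, changed the fat around the prostate. Of the 10 genes, 9 rose in HFD and Tlr9 did not pass, against a background of 16.5% of all genes tested that passed upward and 11.3% downward. As the 10 genes were chosen with earlier results known, this count describes them and is no test of the receptor family. Of 5 measured Toll-like receptor genes outside the 10, 1 rose and 0 fell. Upward calls made up 59.4% of all calls, and 47.9% with arrays centred on their medians or quantile normalized again, where the 9 genes still rose. The endosomal RNA receptors Tlr13 and Tlr8 rose most, 5.91-fold and 4.03-fold in signal, then Tlr1 at 2.10-fold and Tlr7 at 1.96-fold, and Tlr4 and Myd88 least at 1.22-fold and 1.20-fold. The median difference over the 10 genes was 0.62, against -0.0032 over all genes. In 7 of them every HFD mouse lay above every LFD mouse, which was so for 9.05% of all genes.

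Tlr13, a receptor that in mice recognises bacterial ribosomal RNA in endosomes, measured 9.62 at the lowest, 10.11 at the median and 10.51 at the highest in HFD mice. In LFD mice the same values were 7.01, 7.58 and 7.95. No mouse overlapped, and Tlr13 averaged 10.12 ± 0.32 in HFD and 7.56 ± 0.31 in LFD (SD, n = 6 each), a rise of 2.56 ± 0.20 (adjusted p = 5.21e-08). Tlr8, its relative on the X chromosome, whose human counterpart binds RNA breakdown products, measured 10.38, 10.62 and 10.99 as lowest, median and highest in HFD mice. In LFD mice it measured 8.40, 8.68 and 9.13. It averaged 10.69 ± 0.24 in HFD and 8.68 ± 0.26 in LFD (SD, n = 6 each), and its rise of 2.01 ± 0.13 (adjusted p = 9.29e-09) was, relative to its error, the 36th strongest of all genes in either direction. Both estimated differences were larger than that of each of 13 macrophage markers, a comparison not tested as such, among which the lysosomal protein gene Cd68 rose most, by 1.92 ± 0.15.

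Tlr7, the endosomal receptor for uridine- and guanosine-rich RNA, measured 8.36, 8.86 and 9.13 as lowest, median and highest in HFD mice. In LFD mice it measured 7.66, 7.83 and 8.02, so no mouse overlapped, and the rise was 0.97 ± 0.10 (adjusted p = 1.06e-06). Tlr9, the endosomal receptor for DNA with unmethylated CpG, gave no detected difference. It measured 8.55 to 8.96 in HFD mice, with a median of 8.78, inside the 8.37 to 9.10 of LFD mice, whose median was 8.83. The difference was -0.0028 ± 0.12 with a 95% interval of -0.25 to 0.24 (adjusted p = 0.99), and HFD mice were closer to one another than LFD mice were, with SDs of 0.15 and 0.29. Tlr9 is known from B cells and plasmacytoid dendritic cells, and of 8 measured genes of those cells Siglech, a lectin of plasmacytoid dendritic cells, fell by 0.60 ± 0.07 (adjusted p = 5.22e-06) while the other 7 did not pass. Of all genes, 11.3% fell in this comparison, so that count is near the background share.

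Promoter bases are shown for the receptors with the largest rises (Tlr13, Tlr8), a receptor with a smaller rise (Tlr2) and the receptor with no detected difference (Tlr9), so that their sequences can be set beside their responses. Each is the 250 bases before the gene's start in RefSeq on GRCm38.p6, written 5′ to 3′ on the gene's strand, with capitals for matches to any of 6 motifs on either strand. The windows are chrX:106143025-106143274 (plus strand) for Tlr13, chrX:167264330-167264579 (minus strand) for Tlr8, chr3:83841609-83841858 (minus strand) for Tlr2 and chr9:106222348-106222597 (plus strand) for Tlr9.
Tlr13: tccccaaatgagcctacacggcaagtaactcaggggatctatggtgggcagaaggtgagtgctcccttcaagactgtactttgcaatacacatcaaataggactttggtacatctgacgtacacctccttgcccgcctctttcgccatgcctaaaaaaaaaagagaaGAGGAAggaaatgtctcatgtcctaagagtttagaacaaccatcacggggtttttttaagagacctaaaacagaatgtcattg
Tlr8: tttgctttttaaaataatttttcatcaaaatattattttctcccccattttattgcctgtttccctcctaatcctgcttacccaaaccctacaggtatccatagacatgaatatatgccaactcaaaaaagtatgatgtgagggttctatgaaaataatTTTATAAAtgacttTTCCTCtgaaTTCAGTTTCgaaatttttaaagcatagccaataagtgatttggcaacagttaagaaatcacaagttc
Tlr2: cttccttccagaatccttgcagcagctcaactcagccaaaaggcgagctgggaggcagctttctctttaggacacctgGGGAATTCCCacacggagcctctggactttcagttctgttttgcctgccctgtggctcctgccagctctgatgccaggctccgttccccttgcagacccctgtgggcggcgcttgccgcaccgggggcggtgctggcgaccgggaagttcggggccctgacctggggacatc
Tlr9: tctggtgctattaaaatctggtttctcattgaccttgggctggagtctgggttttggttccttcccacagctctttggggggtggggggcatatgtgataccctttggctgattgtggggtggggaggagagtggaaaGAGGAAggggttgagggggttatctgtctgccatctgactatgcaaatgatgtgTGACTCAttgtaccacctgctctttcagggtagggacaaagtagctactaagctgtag

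The motifs searched were the core GAGGAA of PU.1, a lineage factor of macrophages and B cells, AP-1 (TGANTCA), the RelA form of NF-kB (GGGANTTCC), the interferon regulatory factor motif GAAANNGAA, CACGTG as read by TFEB, and TATAAA. Among all 32851 promoter windows of this length, 23.3% held GAGGAA, 6.75% TGANTCA, 1.43% GGGANTTCC, 7.13% GAAANNGAA, 6.02% CACGTG and 12.4% TATAAA. In Tlr13 the only match was GAGGAA, 83 bases before the start. In Tlr8 GAGGAA lay on the other strand 77 bases before the start, the interferon regulatory factor motif on the other strand at 67 bases, and TATAAA on both strands, overlapping, at 89 and 91 bases. In Tlr2 the match was GGGANTTCC, 172 bases before the start, with its mirror match on the other strand overlapping it. In Tlr9 GAGGAA lay at 112 bases and TGANTCA at 58 bases. GAGGAA was thus found both in receptors that rose and in Tlr9. These are matches of letters and not known binding sites. Entries were found for 6 of the 10 genes, Tlr1, Tlr2, Tlr8, Tlr9, Tlr13 and Myd88, in 7 windows, since Tlr1 had 2 of them.

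Among the receptors of the cell surface, Tlr1, which pairs with Tlr2 to bind bacterial lipopeptides, measured 9.02, 9.58 and 10.06 as lowest, median and highest in HFD mice. In LFD mice it measured 7.90, 8.56 and 8.85, and the rise was 1.07 ± 0.16 (adjusted p = 5.00e-05). Its partner Tlr2 measured 8.65, 8.75 and 8.96 in HFD mice and 7.99, 8.11 and 8.35 in LFD mice. The rise of Tlr2 was smaller in size, 0.62 ± 0.08, but rested on tight groups (SDs 0.11 and 0.14, adjusted p = 5.51e-06). No HFD mouse overlapped an LFD mouse in either gene. Tlr6, the other partner of Tlr2 and a close relative of Tlr1, rose by 0.74 ± 0.12 (adjusted p = 9.74e-05), with overlapping groups.

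The endotoxin receptor itself moved little. Tlr4 measured 8.84, 9.02 and 9.27 as lowest, median and highest in HFD mice, against 8.54, 8.76 and 8.87 in LFD mice, and rose by 0.28 ± 0.07 (adjusted p = 0.00438). The groups overlapped, and without the 4 arrays high in muscle or gland genes the difference was 0.22 (adjusted p = 0.0545). Ly96, the secreted protein that binds endotoxin together with Tlr4, measured 11.15, 11.21 and 11.43 in HFD mice and 10.57, 10.86 and 11.02 in LFD mice, and rose by 0.40 ± 0.07 (adjusted p = 2.77e-04). Cd14, which hands endotoxin to Tlr4 and Ly96, rose more, by 0.63 ± 0.10 (adjusted p = 1.50e-04). It measured 8.40, 8.88 and 9.14 in HFD mice and 8.02, 8.18 and 8.45 in LFD mice, where only HFD mouse 5 reached into the LFD range. Myd88, the adaptor used by all these receptors, measured 9.93, 10.05 and 10.11 in HFD mice and 9.64, 9.75 and 9.86 in LFD mice. Its rise of 0.27 ± 0.05 (adjusted p = 5.67e-04) was the smallest of the 9, yet its groups did not overlap.

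**Figure D1:**
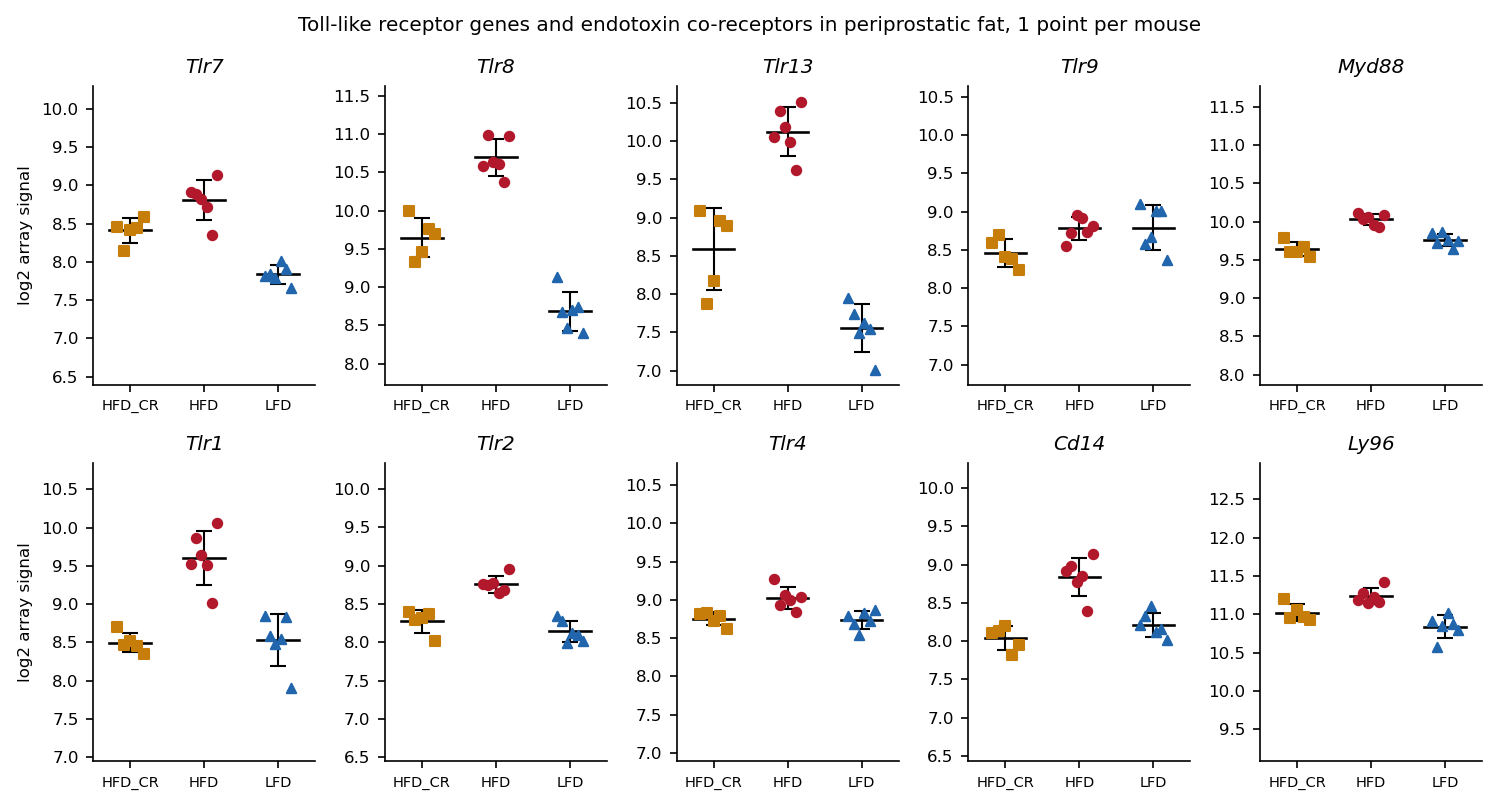
Log2 array signal of each gene by mouse in HFD_CR (squares, n = 5), HFD (circles, n = 6) and LFD (triangles, n = 6), with the mean as a line and the SD as bars. Every panel spans the same number of log2 units around its own centre, and in Tlr13 and Tlr8 no HFD mouse overlaps either of the other groups, while for Tlr13 HFD_CR mouse 2 (7.87) lies below LFD mouse 1 (7.95), and Tlr9 overlaps across HFD and LFD.

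HFD_CR against HFD asked what restricted intake did on the same diet. Of the 10 genes, 9 fell in HFD_CR and Tlr9 did not pass, against a background of 11.3% of all genes that fell and 7.69% that rose. Of 5 measured Toll-like receptor genes outside the 10, 1 rose and 1 fell. Rises made up 40.5% of all calls, and 51.4% after quantile normalization again, where Ly96 no longer passed. Tlr13 fell most, 2.89-fold in signal, then Tlr1 at 2.15-fold, Tlr8 at 2.07-fold and Cd14 at 1.74-fold, while Ly96 fell 1.16-fold. In 7 genes every HFD_CR mouse lay below every HFD mouse, as did 8.26% of all genes, and the median difference over the 10 genes was -0.44, against -0.0024 over all genes. This comparison and the preceding one share the HFD mice.

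Tlr13 measured 9.09, 7.87, 8.18, 8.95 and 8.88 in HFD_CR mice 1 to 5, all below the lowest HFD mouse at 9.62, and fell by 1.53 ± 0.21 (adjusted p = 6.53e-05). Its values formed the widest group of any of these genes, with an SD of 0.54, since mice 2 and 3 lay well below the other 3. Tlr8 measured 10.00, 9.33, 9.46, 9.76 and 9.69 in HFD_CR mice, below the 10.38 of the lowest HFD mouse, and fell by 1.05 ± 0.14 (adjusted p = 4.29e-05). Mice 2 and 3 were again lowest. Tlr7 measured 8.46, 8.14, 8.42, 8.45 and 8.58 in HFD_CR mice and overlapped the lowest HFD mouse at 8.36. It fell by 0.40 ± 0.11 (adjusted p = 0.0135), and without the 4 arrays high in muscle or gland genes the difference was -0.26 (adjusted p = 0.104).

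Tlr1 measured 8.70, 8.46, 8.52, 8.45 and 8.35 in HFD_CR mice, all below the lowest HFD mouse at 9.02, and fell by 1.10 ± 0.17 (adjusted p = 1.38e-04). Tlr2 measured 8.39, 8.29, 8.31, 8.37 and 8.01, below the 8.65 of the lowest HFD mouse, and fell by 0.48 ± 0.08 (adjusted p = 2.71e-04). The restricted mice lay inside the LFD range for Tlr1, and for Tlr2 mice 1 and 4 lay just above it. Cd14 measured 8.10, 8.14, 8.19, 7.82 and 7.95 in HFD_CR mice against 8.40 in the lowest HFD mouse, and it fell by 0.80 ± 0.11 (adjusted p = 5.17e-05), with no overlap. Myd88 measured 9.79, 9.61, 9.60, 9.67 and 9.54, below the lowest HFD mouse at 9.93, and fell by 0.39 ± 0.05 (adjusted p = 5.83e-05). The adaptor thus had the smallest error of the 10 genes and no overlap.

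Tlr4 measured 8.82, 8.84, 8.72, 8.79 and 8.62 in HFD_CR mice, where mouse 2 all but reached HFD mouse 5, the lowest of its group, and fell by 0.27 ± 0.07 (adjusted p = 0.0132). Ly96 measured 11.21, 10.95, 11.06, 10.97 and 10.93 in HFD_CR mice, with mouse 1 inside the HFD range, and fell by 0.22 ± 0.07 (adjusted p = 0.0485). That call was at the edge of the threshold: 19 of 29 alternative settings ended it, with adjusted p between 0.00488 and 0.122 over all of them, among them leaving out any HFD_CR mouse from 2 to 5. Tlr9 measured 8.59, 8.70, 8.40, 8.38 and 8.24 in HFD_CR mice, and its difference of -0.32 ± 0.12 had a 95% interval of -0.58 to -0.06 but did not pass over all genes (adjusted p = 0.0781). It passed under 6 alternatives, with adjusted p = 0.0495 without HFD_CR mouse 2 and 0.0419 without LFD mouse 6.

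**Figure D2:**
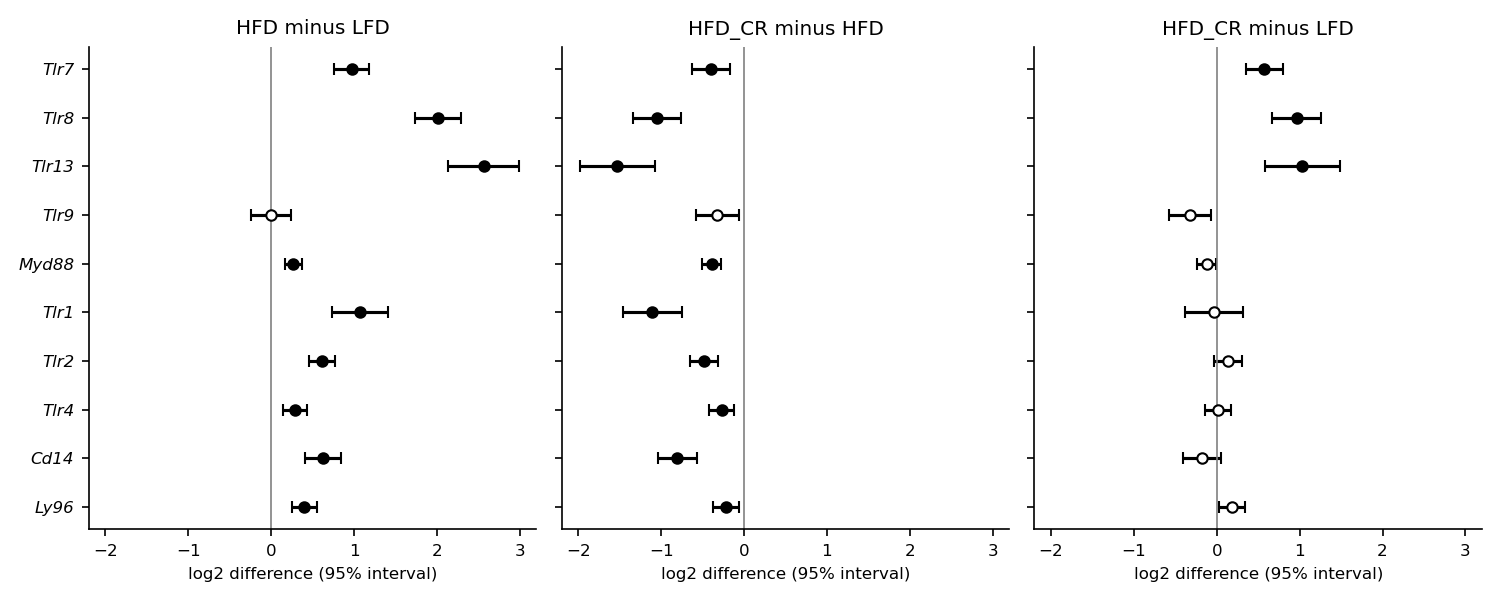
Log2 difference of each gene with its 95% interval, in panels for HFD minus LFD, for HFD_CR minus HFD and for HFD_CR minus LFD (filled points, adjusted p under 0.05 in limma over all genes). Tlr13 (2.56) and Tlr8 (2.01) lie farthest right in HFD minus LFD, and in HFD_CR minus LFD the filled points are Tlr7, Tlr8 and Tlr13.

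HFD_CR against LFD asked how restricted high-fat mice differed from mice that never ate the high-fat diet. The 3 endosomal RNA receptors among the 10 genes, Tlr7, Tlr8 and Tlr13, were higher in HFD_CR. The other 7 genes did not pass, against 5.8% of all genes higher and 3.28% lower. Tlr13 was higher by 1.03 ± 0.21 (adjusted p = 0.00472), Tlr8 by 0.96 ± 0.14 (adjusted p = 2.85e-04) and Tlr7 by 0.57 ± 0.11 (adjusted p = 0.00228). For Tlr8 and Tlr7 every HFD_CR mouse lay above every LFD mouse (2 of 10 genes, against 4.24% of all genes), and for Tlr13 HFD_CR mouse 2, at 7.87, lay below the highest LFD mouse at 7.95. The order of the groups was therefore HFD, HFD_CR, LFD for these 3 receptors, with each neighbouring pair of groups passing the test.

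For the remaining genes the interval of the difference shows what the arrays allow. It ran from -0.39 to 0.32 for Tlr1, from -0.03 to 0.30 for Tlr2, from -0.14 to 0.17 for Tlr4, from -0.40 to 0.06 for Cd14, from 0.03 to 0.34 for Ly96, from -0.23 to -0.01 for Myd88 and from -0.58 to -0.07 for Tlr9. The adjusted p was 0.938 for Tlr1, 0.353 for Tlr2, 0.936 for Tlr4, 0.387 for Cd14, 0.146 for Ly96, 0.193 for Myd88 and 0.117 for Tlr9. Tlr9 passed, lower in HFD_CR, under 3 of 29 alternatives, with adjusted p = 0.0299 without LFD mouse 6. In the order of levels, HFD was highest for Tlr1, Tlr2, Tlr4, Cd14, Ly96 and Myd88, and the HFD_CR and LFD levels below it did not differ beyond the test.

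Beside the list counts that follow, the shares of all genes that rose and fell were 16.5% and 11.3% in HFD against LFD. They were 7.69% and 11.3% in HFD_CR against HFD, and 5.8% and 3.28% in HFD_CR against LFD. Most genes listed for receptor chaperones and endosomal handling, among them transporters, proteases and nucleases, rose on the high-fat diet as well. Of 15 such genes 14 were measured, and 12 rose and 0 fell in HFD against LFD, with a median difference of 0.46. The 2 that did not pass were the chaperone genes Cnpy3 (0.04 ± 0.04, adjusted p = 0.47) and Hsp90b1 (0.05 ± 0.06, adjusted p = 0.61). The genes with the largest rises were the lysosomal histidine and peptide transporter gene Slc15a3 (1.93 ± 0.12), the cathepsin S gene Ctss (1.92 ± 0.17) and the legumain gene Lgmn (1.47 ± 0.09), with adjusted p of 8.32e-09, 1.51e-07 and 7.05e-09. Unc93b1, which escorts the nucleic acid receptors out of the endoplasmic reticulum, averaged 11.38 ± 0.11 in HFD and 10.68 ± 0.19 in LFD (SD, n = 6 each), a rise of 0.71 ± 0.07 (adjusted p = 1.12e-06). In HFD_CR 0 rose and 12 fell against HFD, led by Slc15a3 (-1.54 ± 0.13, adjusted p = 3.26e-06), Ctss (-1.19 ± 0.18, adjusted p = 1.31e-04) and Lgmn (-0.89 ± 0.10, adjusted p = 1.01e-05). Against LFD, HFD_CR had 5 of them higher and 1 lower, and the largest differences were those of Ctss (0.73 ± 0.18, adjusted p = 0.0136), Lgmn (0.58 ± 0.10, adjusted p = 8.75e-04) and Pld3, an endosomal nuclease gene (0.46 ± 0.09, adjusted p = 0.00377). The 1 lower was Hsp90b1 (-0.24 ± 0.06, adjusted p = 0.014).

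Among the other Toll-like receptor genes, Tlr6 was the only call of 5 in HFD against LFD, and Tlr3, Tlr5, Tlr11 and Tlr12 lay between -0.06 and 0.11. Tlr3, also an endosomal RNA receptor, was at 0.01 ± 0.05 there (adjusted p = 0.916) and at 0.14 ± 0.05 in HFD_CR minus LFD (adjusted p = 0.122). In HFD_CR against HFD, Tlr6 fell by 0.43 ± 0.12 (adjusted p = 0.0190) and Tlr5, the receptor for bacterial flagellin, rose by 0.29 ± 0.07 (adjusted p = 0.00797). In HFD_CR against LFD none of the 5 passed, and the smallest p was that of Tlr5 (0.22 ± 0.07, adjusted p = 0.0587). Tlr11 and Tlr12 averaged below or near the array median in every group, so that a change of theirs could have gone unseen.

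Adaptors and kinases were mixed. Of 24 listed 19 were measured, and 8 rose and 3 fell in HFD against LFD, with a median of 0.06. Pik3ap1, which links the receptors to phosphoinositide kinase, rose by 1.55 ± 0.11 (adjusted p = 2.23e-08), Ticam2, the bridging adaptor of Tlr4, by 0.88 ± 0.09 (adjusted p = 7.59e-07) and the kinase gene Ikbke by 0.67 ± 0.08 (adjusted p = 2.86e-06). In HFD_CR 2 rose and 5 fell against HFD, and the largest differences were those of Pik3ap1, Ticam2 and Ikbke: Pik3ap1 fell by 1.19 ± 0.12, Ticam2 by 0.66 ± 0.09 and Ikbke by 0.55 ± 0.08, with adjusted p of 6.47e-06, 7.66e-05 and 1.07e-04. In HFD_CR against LFD the only call of 19 was Irak2, a kinase gene of the Myd88 complex, which was higher by 0.53 ± 0.08 (adjusted p = 5.47e-04). That count is near the share over all genes, 5.8% higher.

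Some genes that restrain the pathway rose on the high-fat diet too. Of 16 such genes 8 rose and 1 fell in HFD against LFD, with a median of 0.28, and the largest rises were those of the inhibitory receptor gene Lilrb4a (1.43 ± 0.11, adjusted p = 4.10e-08), the Tlr4-like decoy gene Cd180 (1.18 ± 0.19, adjusted p = 1.33e-04) and the inhibitory receptor gene Pirb (0.97 ± 0.10, adjusted p = 1.30e-06). In HFD_CR 0 rose and 5 fell against HFD, led by Cd180 (-1.10 ± 0.20, adjusted p = 7.51e-04), Lilrb4a (-0.85 ± 0.12, adjusted p = 5.66e-05) and Ly86, which encodes the partner protein of Cd180 (-0.80 ± 0.12, adjusted p = 1.62e-04). HFD_CR had 5 of 16 higher than LFD and 0 lower, led by Lilrb4a (0.58 ± 0.12, adjusted p = 0.00371), Tnfaip3, the ubiquitin-editing inhibitor of NF-kB (0.44 ± 0.08, adjusted p = 0.00126), and Irak3, a kinase-like inhibitor of the Myd88 complex found in macrophages (0.37 ± 0.05, adjusted p = 2.97e-04). Irak3 averaged 10.14 ± 0.11 in HFD_CR (SD, n = 5), 10.14 ± 0.07 in HFD and 9.77 ± 0.07 in LFD (SD, n = 6 each), and HFD_CR and HFD gave no detected difference (adjusted p = 0.9998, SE 0.05).

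Of 12 genes for the transfer and breakdown of endotoxin, 7 rose and 0 fell in HFD against LFD, with a median of 0.42. They were led by the scavenger receptor gene Msr1 (1.05 ± 0.14, adjusted p = 1.46e-05), the lipid transfer protein gene Pltp (0.87 ± 0.09, adjusted p = 9.53e-07) and Lbp, the endotoxin-binding protein that loads Cd14 (0.71 ± 0.12, adjusted p = 1.85e-04). In HFD_CR 0 rose and 5 fell against HFD, led by Msr1 (-0.96 ± 0.15, adjusted p = 1.50e-04), the integrin gene Itgam (-0.59 ± 0.15, adjusted p = 0.00826) and Pltp (-0.48 ± 0.10, adjusted p = 0.00148). Pltp was the only one of 12 to pass in HFD_CR against LFD (0.39 ± 0.10, adjusted p = 0.0138), where 5.8% of all genes were higher.

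Of 20 target genes of the pathway, 8 rose and 0 fell in HFD against LFD, with a median of 0.13. The chemokine gene Ccl3 rose by 2.05 ± 0.19 (adjusted p = 3.04e-07), Tnf by 0.80 ± 0.10 (adjusted p = 5.62e-06) and the chemokine gene Cxcl2 by 0.69 ± 0.09 (adjusted p = 8.48e-06). The other 5 that rose were Lcn2 (0.44), Il10 (0.43), Il1b (0.35), Cxcl1 (0.32) and Sod2 (0.13). Among the 12 that did not pass were Il6 at 0.02 ± 0.05, Nos2 at -0.01 ± 0.10, Ptgs2 at -0.21 ± 0.18 and Acod1 at -0.03 ± 0.08, and these genes outside the 3 largest were named after their values were seen. Il6 (5.26), Acod1 (6.49), Il1b (6.33), Il10 (6.36) and Cxcl1 (6.92) averaged below the array medians in HFD. In HFD_CR 0 rose and 8 fell against HFD, with the acute phase gene Saa3 at -1.62 ± 0.28 (adjusted p = 4.83e-04), Ccl3 at -1.32 ± 0.20 (adjusted p = 1.55e-04) and Tnf at -0.71 ± 0.10 (adjusted p = 8.80e-05). In HFD_CR against LFD, Ccl3 was higher by 0.73 ± 0.20 (adjusted p = 0.0305) and Saa3 lower by 1.01 ± 0.28 (adjusted p = 0.0295). These were the only calls of 20, where 5.8% of all genes were higher and 3.28% lower.

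**Figure D3:**
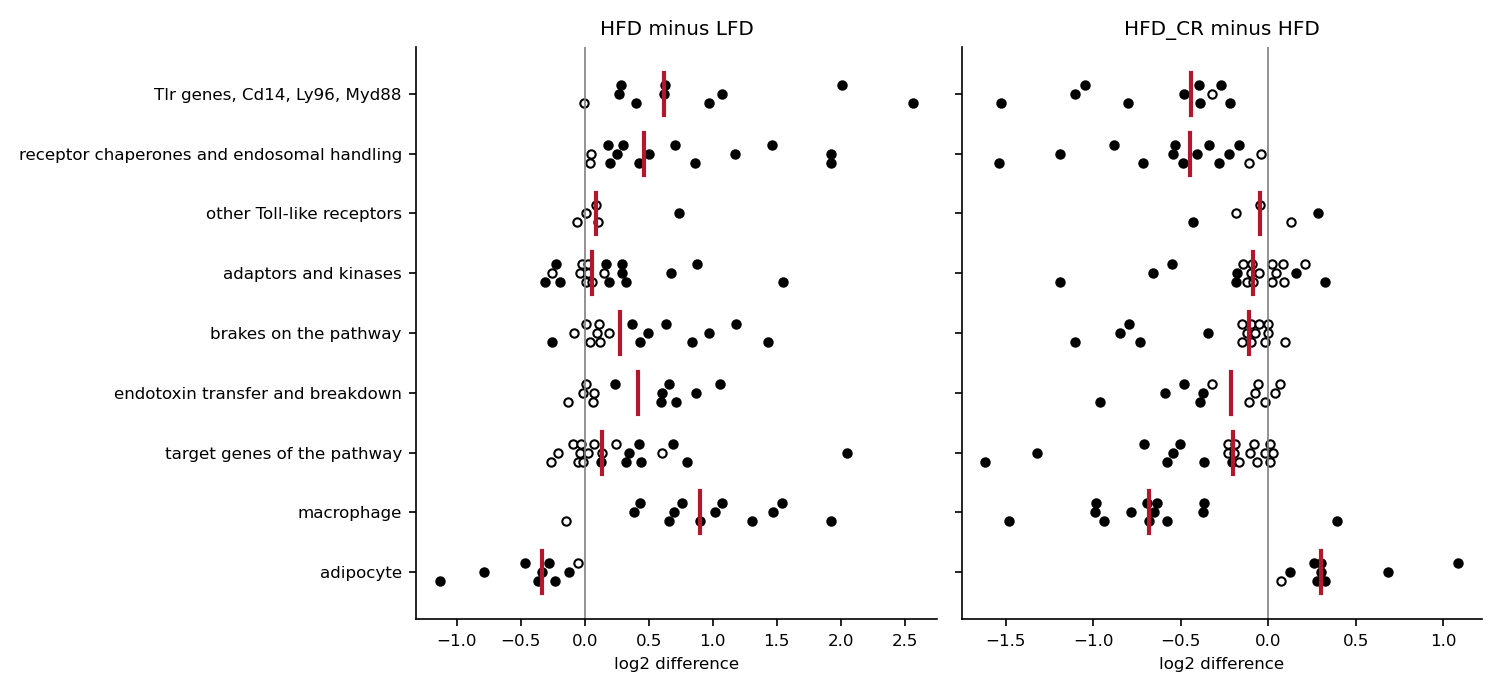
Log2 differences of single genes (points, filled where adjusted p was under 0.05) and the list's median (vertical bar) for 9 gene groups in HFD minus LFD and HFD_CR minus HFD. The 10 genes have medians of 0.62 and -0.44, the macrophage markers of 0.90 and -0.68, and the adipocyte markers of -0.33 and 0.30.

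Markers of macrophages moved with these genes. Of 13 measured markers, 12 rose and 0 fell in HFD against LFD, 1 rose and 12 fell in HFD_CR against HFD, and 5 rose and 0 fell in HFD_CR against LFD. Their mean per mouse ran from 10.60 to 10.92 in HFD_CR, from 11.18 to 11.59 in HFD and from 10.16 to 10.66 in LFD, so that HFD did not overlap the others, and the difference of group means was 0.92 for HFD minus LFD, -0.68 for HFD_CR minus HFD and 0.25 for HFD_CR minus LFD. The exception was Mertk, a receptor for the uptake of dead cells, at -0.14 ± 0.06 in HFD minus LFD (adjusted p = 0.113) and higher in HFD_CR than in HFD by 0.39 ± 0.07 (adjusted p = 4.34e-04). Of 9 adipocyte markers 8 were lower in HFD than in LFD and 8 higher in HFD_CR than in HFD. What part these markers have in the results above was not tested beyond the values that follow. In bulk tissue, more cells of a type and more RNA per cell cannot be told apart.

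Taking the macrophage marker mean off each array separated the 10 genes. On that scale 0.915% of all genes rose and 97% fell in HFD against LFD, because the marker mean itself rose, so a fall there is what nearly every gene shows and a rise is rare. Tlr13 and Tlr8 were higher on it in HFD, by 1.64 ± 0.14 (adjusted p = 3.11e-10) and 1.09 ± 0.10 (adjusted p = 4.41e-10). Tlr1 (0.15 ± 0.11, adjusted p = 0.200) and Tlr7 (0.05 ± 0.10, adjusted p = 0.657) did not pass, and Tlr2, Tlr4, Tlr9, Cd14, Ly96 and Myd88 were lower, between -0.93 and -0.30. Leaving out LFD mouse 3 ended the call of Cd14 (adjusted p = 0.0519), and leaving out HFD mouse 5 made Tlr1 pass (0.0407). In HFD_CR minus HFD the background was 95.6% of genes higher and 0.721% lower. Tlr13 (-0.85 ± 0.15, adjusted p = 8.70e-06), Tlr1 (-0.43 ± 0.12, adjusted p = 0.00107) and Tlr8 (-0.37 ± 0.10, adjusted p = 0.00117) were among those lower, and Tlr4, Tlr7, Tlr9, Ly96 and Myd88 were higher, Tlr7 not without HFD_CR mouse 5 (adjusted p = 0.0624). Tlr2 did not pass (adjusted p = 0.0626), but did without HFD_CR mouse 1 or 5, HFD mouse 5 or LFD mouse 6 (0.0295 to 0.0438). In HFD_CR minus LFD, where 0.96% of genes were higher and 25.3% lower, Tlr13 (0.78 ± 0.15, adjusted p = 0.00141), Tlr8 (0.71 ± 0.10, adjusted p = 5.21e-05) and Tlr7 (0.33 ± 0.11, adjusted p = 0.0346) were higher and Tlr9, Cd14 and Myd88 lower. Of these, Tlr7 no longer passed without HFD_CR mouse 1, 3, 4 or 5 or without LFD mouse 3 or 5 (adjusted p up to 0.0766), Cd14 without HFD_CR mouse 1 (0.0715) or 4 (0.0602), and Myd88 without HFD_CR mouse 1 (0.0595). Tlr1, not called with all arrays (-0.28 ± 0.12, adjusted p = 0.0613), passed as lower without HFD mouse 5 (0.0398) or LFD mouse 6 (0.0476).

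This scale assumes that a gene moves 1 for 1 with the marker mean. With the mean as a covariate instead, 0 genes passed in limma in HFD minus LFD (1116 at an unadjusted p under 0.05) and 0 in HFD_CR minus HFD (1391, none of the 10 genes among them), where the groups account for most of the marker mean (R2 = 0.894). In HFD minus LFD, Tlr13 was then at 0.61 ± 0.37 (unadjusted p = 0.117, adjusted p = 0.999) and Tlr8 at 0.62 ± 0.19 (unadjusted p = 0.00449, adjusted p = 0.817), while Tlr1 at -0.59 ± 0.24 and Tlr9 at -0.76 ± 0.30 had unadjusted p of 0.0240 and 0.0220 (adjusted p = 0.962 for each). In HFD_CR minus HFD, Tlr13 was at -0.10 ± 0.28 and Tlr8 at -0.03 ± 0.15 (adjusted p = 0.983 and 0.991). In HFD_CR minus LFD 734 genes passed in that fit, among them Tlr8, higher by 0.59 ± 0.08 (adjusted p = 7.52e-04), Tlr1, lower by 0.48 ± 0.10 (adjusted p = 0.0148), and Tlr9, lower by 0.53 ± 0.13 (adjusted p = 0.0340). Tlr13, at 0.51 ± 0.16 (adjusted p = 0.098), and Tlr7, at 0.38 ± 0.11 (adjusted p = 0.069), did not pass there.

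**Figure D4:**
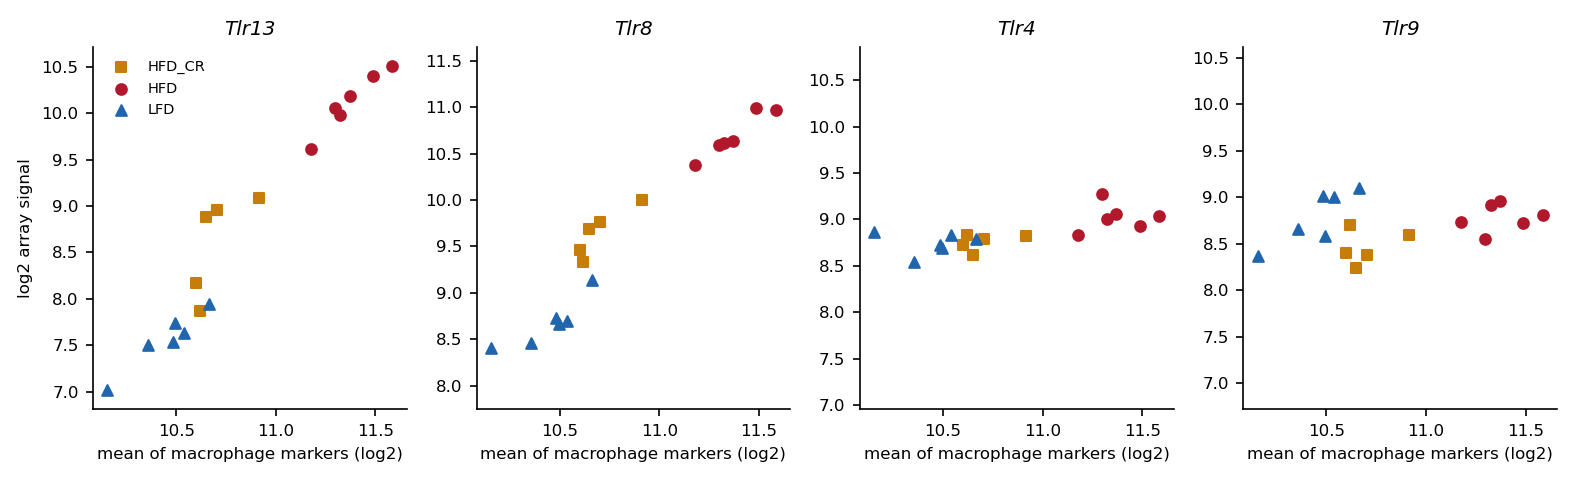
Log2 signal of Tlr13, Tlr8, Tlr4 and Tlr9 against the mean of 13 macrophage markers in each mouse of HFD_CR (squares), HFD (circles) and LFD (triangles). Tlr13 and Tlr8 climb with the markers, with r of 0.82 and 0.91 after taking off group means, whereas Tlr4 (0.10) stays nearly level within groups.

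Within groups, some mice were high or low in several of these genes at once. HFD mouse 6, with the highest macrophage mean of all (11.59), had the highest value of its group for 6 of the 10 genes, and HFD mouse 5, with the lowest mean of its group (11.18), the lowest for 7. LFD mouse 6, whose macrophage mean of 10.16 was the lowest of all, had the lowest value of its group for 6 genes, and LFD mouse 1 (10.66, the highest LFD mean) the highest for 5. Among HFD_CR mice, mouse 1 (10.92, the highest) had the highest value for 6 genes. Mouse 5 had the lowest for 6 with a macrophage mean of 10.65, in the middle of its group, and mouse 3, with the lowest mean (10.60), the lowest for 0.

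As a description over 17 arrays that share those markers and their normalization, the correlation with the macrophage mean after taking off group means was 0.91 for Tlr8, 0.89 for Tlr1, 0.82 for Tlr13, 0.67 for Tlr2, 0.63 for Tlr7, 0.56 for Tlr9, 0.54 for Ly96, 0.48 for Myd88, 0.44 for Cd14 and 0.10 for Tlr4. Tlr9 stood closer to the mean of the B cell and plasmacytoid dendritic cell list (0.70). Among the 45 pairs of the 10 genes the same correlation had a median of 0.37, with Tlr8 and Tlr13 the closest pair at 0.89 and Tlr4 and Tlr13 the least alike at -0.03.

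The genes whose signals were most like each of the 10 over the 17 arrays, by Pearson's r with group differences included, differed in kind. Tlr13 was nearest to Adam8 (0.992), Lgmn (0.991) and Ctss (0.991), and Tlr8 to the myeloid lectin gene Clec12a (0.992), the integrin gene Itgax (0.990) and Lgmn (0.990). Tlr1 was nearest to Vav1 (0.983), Fyb (0.982) and Slfn2 (0.978), genes of blood cell signalling, Tlr2 to Ticam2 (0.978), Emp3 (0.975) and Entpd1 (0.973), and Tlr7 to Ms4a6d (0.974), the cholesterol export gene Npc1 (0.965) and the heme oxygenase gene Hmox1 (0.965). Tlr9 had less close neighbours, the B cell gene Fcrl1 (0.885), the lymphoid transcription factor gene Ikzf1 (0.884) and Arhgap45 (0.880). Tlr4 was nearest to Vapb (0.922), Mrpl20 (0.913) and Limk1 (0.908), Cd14 to Ap1b1 (0.972), Clec11a (0.959) and Ddx31 (0.944), Ly96 to Nagpa (0.931), Lamtor3 (0.926) and Fat3 (0.926), and Myd88 to Itpk1 (0.960), Azin1 (0.960) and the chaperone gene Hspa5 (0.943).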

How the data were processed

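RNA of 17 mice was measured on 1 array each. The values the authors deposited are log2 expression per probe set. The tools named in the submitters' processing notes are RMA, limma and R 3.5.0, without roles, and per the labels' protocols RNA had an integrity number above 7. The table held 33793 probe sets, of which 23521 had exactly 1 gene symbol, 1814 several and 8458 none. The probe set with the highest mean was kept per gene, which left 22180 genes. No filter or rescaling was applied.

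With limma 3.58.1 (R 4.3.3), group means were fitted over all arrays by lmFit and eBayes, with 14 residual degrees of freedom, and 3 contrasts were taken. A second fit used values minus the mean of 13 macrophage markers of the same array. The fit was checked on simulated data. The genes and lists were chosen with earlier results of these data known. Named by rule were the 10 genes, up to 3 passing genes of each pathway list with the largest difference (or the gene with the smallest p), and the 3 genes most correlated with each of the 10. Predicted genes, clone names and small RNAs were left out of the last. Cd68, Mertk, Siglech, Tlr3, Unc93b1, Cnpy3 and Hsp90b1, and Irak3 in HFD_CR against HFD, were named after their values were seen. Among the list genes, Rnaset2b, Irak4, Traf3, Chuk, Nfkb1, Irf5, Cfd, Krt5 and Prm2 had no probe set of their own symbol alone. The remaining marker lists gave, higher and lower, 2 and 0 of 9 neutrophil and monocyte genes, 1 and 0 of 7 progenitor and endothelial genes and 0 and 2 of 5 thermogenic genes in HFD against LFD, 0 and 2, 0 and 0, and 0 and 1 in HFD_CR against HFD, and 0 and 0, 1 and 0, and 0 and 4 in HFD_CR against LFD. Skeletal muscle and gland epithelium lists had 0 calls in each, and the male germ cell list 1 higher, 1 lower and 0. Alternatives left out each array, blocked on mouse number, filtered dim genes, treated several probe sets otherwise, renormalized, restricted the fit, changed the spread estimate, weights or threshold, and left out arrays with other tissue. Same-numbered mice of different groups varied together little (16 pairs, median r 0.05, highest 0.31), against a median r of -0.02 and a highest of 0.25 in 80 pairs of other numbers. The numbers were not taken to pair the mice, and a fit blocked on them is given below. The mice are separate animals, and no source used here gives array batches. Promoter bases are from RefSeq on GRCm38.p6; the build behind the array annotation is not given in these sources. Python 3.11.15 with matplotlib 3.10.9 drew the figures.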

Additional observations from a re-analysis of the deposited data

Results flagged for a closer look

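Tlr2 in HFD_CR mouse 5 measured 8.01, apart from the other 4 restricted mice, of which the nearest measured 8.29. The gap was 0.724 of the range of the group, above the Dixon limit of 0.71 for 5 samples. It was the only such value among 30 groups of values checked (10 genes in 3 groups), and chance alone marks about 1 in 20. Without that mouse Tlr2 still fell in HFD_CR against HFD.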

How the results depend on the processing

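Of 30 results for the 10 genes in 3 comparisons, 21 kept their direction and side of the threshold under all 29 alternatives, and 9 did not. A threshold of 0.01 left 2575 genes in HFD_CR minus HFD (4213 at 0.05) and 967 in HFD_CR minus LFD (2015). The fit with mouse number as a replicate block called 9 of the 10 genes in HFD minus LFD, 8 in HFD_CR minus HFD and 3 in HFD_CR minus LFD; it ended the call of Ly96 in HFD_CR minus HFD (-0.20, adjusted p = 0.0918) and of no other of the 10. Directions of differences near 0 turned: leaving out 1 array gave -0.0867 to 0.0594 for Tlr9 in HFD minus LFD, and in HFD_CR minus LFD -0.159 to 0.0300 for Tlr1 and -0.0248 to 0.0501 for Tlr4. In HFD_CR minus LFD, Tlr4 was -0.0090 after quantile normalization again, -0.0037 with arrays centred, -0.0137 with array weights, -0.0673 without arrays with other tissue and -0.0036 without LFD mice 3 and 6.

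Relative to the macrophage markers, HFD_CR minus LFD was the least stable. Leaving out 1 array gave 904 (HFD_CR mouse 1) to 11266 genes (LFD mouse 1), against 5829 with all arrays, and 1602 without HFD_CR mouse 4, 2948 without HFD_CR mouse 5, 2242, 3428 and 1638 without LFD mouse 3, 5 or 6, and it gave 3 to 7 of the 10 genes, 3 without HFD_CR mouse 1. The mean of 4 markers gave 1055 genes, and Ly96 at 0.00053. Leaving out 1 array gave -0.00076 to 0.0968 for Tlr7 in HFD minus LFD. With the covariate, 0, 0 and 734 genes and 0, 0 and 3 of the 10 passed in the 3 comparisons, with HFD minus LFD at -0.59 for Tlr1, 0.0653 for Tlr2, 0.21 for Tlr4, 0.11 for Cd14 and 0.0305 for Myd88, HFD_CR minus HFD at 0.11 for Tlr1, -0.0803 for Tlr2, -0.21 for Tlr4 and -0.22 for Myd88, and HFD_CR minus LFD at 0.0730 for Ly96. The causes were not tested.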
